A study of Mus musculus with 10 samples.

Results

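Matricellular proteins are secreted into the extracellular matrix and act mainly as signals between matrix and cells, in contrast to the collagens, which bear load. The 10 genes described here, Spp1, Fn1, Sparc, Thbs1, Thbs2, Tnc, Postn, Vcan, Tgfbi and Cthrc1, encode matricellular proteins and adhesive matrix proteins that act beside them. They were taken by name from the 17864 genes of the count table, and all 10 were found there. Such proteins are scarce in most resting tissues and abundant in wounds and in the stroma of tumors, where fibroblasts, macrophages and the tumor cells themselves can secrete them. Their receptors are mostly integrins, together with CD44, CD47, CD36, syndecans and LRP1. TAZ and its homologue YAP act in the nucleus through TEAD transcription factors, and matrix genes are among the targets commonly described for them.

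The tumors came from 4T1, a mouse mammary carcinoma line used as a model of triple-negative breast cancer. RNA of the whole tumor was sequenced from 5 tumors whose cells carried a control guide RNA (sgCon) and from 5 whose cells carried 1 guide RNA directed at TAZ (sgTaz). Both groups carried Cas9, so they differ by the guide. In the methods, 100000 cells were placed in the mammary fat pad of female mice aged 6 to 8 weeks. The methods name SCID mice, which lack mature B and T cells, and BALB/c mice as hosts, and the labels do not say which bore the sequenced tumors. Levels of B and T cell markers in these tumors are given below. Nor do the labels give the age of a tumor at harvest or whether the cells were a pool or 1 clone, and no other guide was sequenced. The guide was present in the injected cells alone, so host fibroblasts, macrophages and vessels kept an intact gene. In RNA of a whole tumor, fewer cells of a type and less RNA per cell cannot be told apart.

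The total count of a tumor ranged from 14753922 to 19595821 (sgCon) and from 12185383 to 18395558 (sgTaz). Levels are given as CPM, in which the counts of each tumor are scaled to a common total adjusted by TMM normalization. In sgCon tumors 1 to 5, in that order, Wwtr1, the gene of TAZ, was at 192, 181, 115, 171 and 156 CPM. In sgTaz tumors 1 to 5 it was at 86.6, 104, 109.9, 139 and 102 CPM, so that sgTaz tumor 4 lay above the lowest sgCon tumor. The lowest tumor within each group was sgCon tumor 3 or sgTaz tumor 1. The log2 fold change, sgTaz over sgCon throughout, was -0.59 with a standard error of 0.15. The adjusted p was 0.096 in edgeR, which does not pass 0.05, and 0.0149 in DESeq2, which does. All 10 genes listed as epithelial markers were detected in every tumor. Their sum lay between 2242 and 5222 CPM in sgCon and between 1664 and 4078 CPM in sgTaz tumors. In RNA of a whole tumor these markers do not separate cells that carried a guide from cells that did not.

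No difference between sgTaz and sgCon tumors beyond the spread between tumors was detected in any of the 10 matricellular genes. With edgeR's quasi-likelihood test and a Benjamini-Hochberg adjusted p below 0.05, 0 of 10 passed, where 0.00675% of all 14816 tested genes did. At an unadjusted p below 0.05 it was again 0 of 10, where 21.8% of all tested genes passed. DESeq2 called 0 of 10, where it called 6.87% of all genes with an adjusted p, 3.38% higher and 3.5% lower in sgTaz tumors. Limma-voom with sample quality weights called 0 of 10, where it called 10.4% of all tested genes, 4.63% higher and 5.8% lower. In 0 of 10 genes were the groups without overlap, where this held for 4.57% of all tested genes, 2.44% higher and 2.13% lower in sgTaz tumors.

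The log2 fold changes of the 10 genes were split evenly, with 5 above and 5 below 0 and a median of 0.02. Over all tested genes the median was -0.019. The adjusted p of the 10 genes was between 0.497 and 0.929 in edgeR, and between 0.202 and 0.996 over 20 other ways of fitting the data. What the data do show is a large spread of these genes among tumors of the same group, and 2 tumors, sgCon tumor 3 and sgTaz tumor 1, in which most of the 10 were low together.

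**Figure D1:**
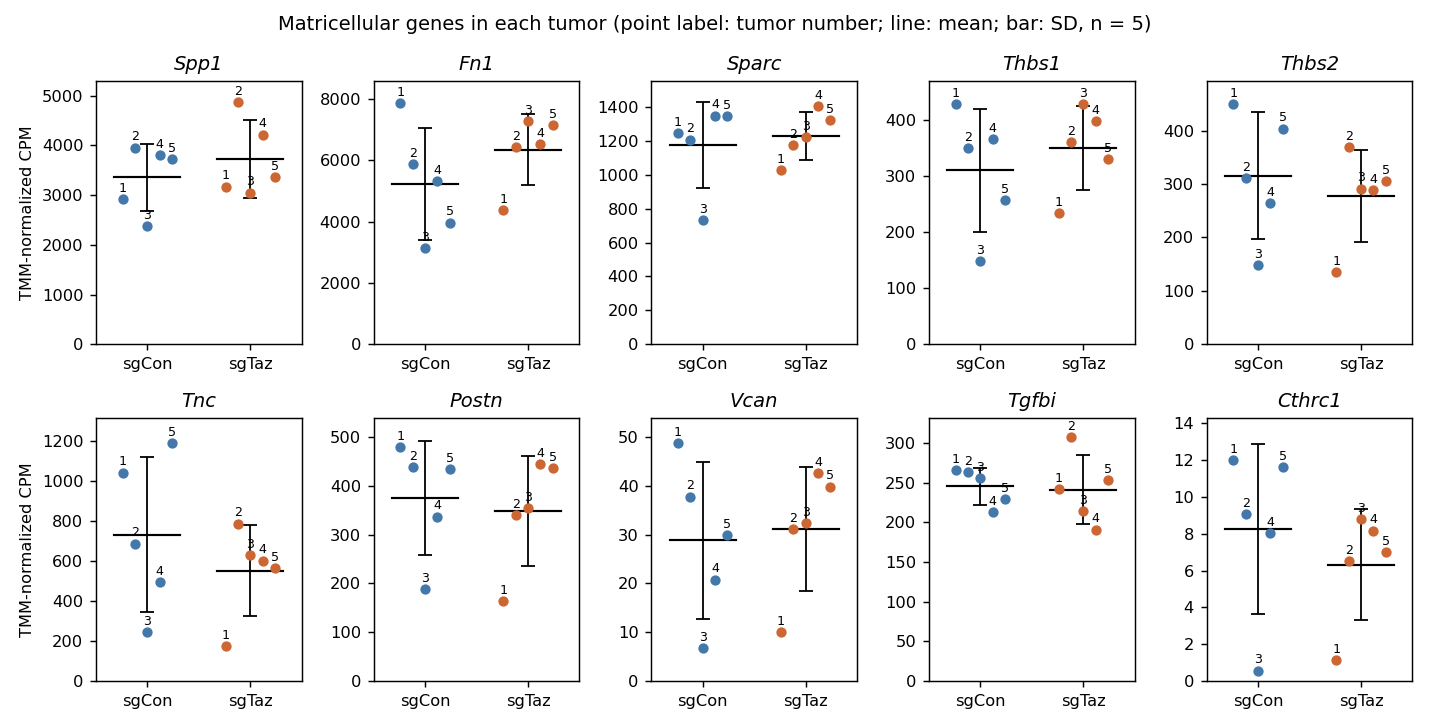
TMM-normalized CPM (vertical axis, from 0) of each of the 10 genes in the 5 sgCon and 5 sgTaz tumors, with the tumor number above each point, the mean as a line and the SD as a bar. The groups overlap in every panel, and sgCon tumor 3 and sgTaz tumor 1 are the lowest points of their groups in 8 of the 10 panels.

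Spp1 and Fn1 encode the best known adhesive ligands of the set. Spp1 (ENSMUSG00000029304.14, chr5:104435118-104441050 of mm10, plus strand) encodes osteopontin, a secreted phosphoprotein that binds integrins and CD44. In sgCon tumors 1 to 5, Spp1 was at 2918, 3957, 2379.9, 3807 and 3720.1 CPM, and in sgTaz tumors 1 to 5 at 3171, 4872, 3049, 4219 and 3364 CPM. The range of the sgTaz tumors began above the lowest sgCon tumors and ended above all of them, with 3 of the 5 sgTaz tumors inside the sgCon range. The group means were 3357 ± 679 CPM (SD, n = 5) in sgCon and 3735 ± 783 CPM (SD, n = 5) in sgTaz tumors. The log2 fold change was 0.15, with a 95% confidence interval of -0.22 to 0.53 (adjusted p = 0.634 from edgeR).

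Fn1 (ENSMUSG00000026193.15, chr1:71585520-71653200, minus strand) encodes fibronectin, which is assembled into fibrils through the integrin of Itga5 and Itgb1 and carries many other matrix proteins. It was at 7868, 5872, 3128, 5333 and 3969.8 CPM in sgCon tumors 1 to 5 and at 4378, 6425, 7276, 6534 and 7153 CPM in sgTaz tumors 1 to 5. Of the sgTaz tumors, 4 of 5 were between 6425 and 7276 CPM, above 4 of the 5 sgCon tumors, yet sgCon tumor 1 was above all of them and sgTaz tumor 1 was low. The means were 5234 ± 1829 CPM (SD, n = 5) in sgCon and 6353 ± 1165 CPM (SD, n = 5) in sgTaz tumors. This gave a log2 fold change of 0.28 (95% confidence interval -0.22 to 0.78, adjusted p = 0.497 from edgeR). Fn1 alone took between 0.309% and 0.764% of all counts of a tumor. Its exons share 292 bases with the antisense gene Apol7d, and those of Spp1 share 309 bases with Gm42793 on the same strand. Both partners had at most 137 counts in a tumor, against at least 38153 for Spp1 and 50144 for Fn1, so the partners' own counts are small beside these levels.

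Sparc, Thbs1 and Thbs2 encode proteins that loosen adhesion or restrain vessels. Sparc (ENSMUSG00000018593.13, chr11:55394500-55423183, minus strand), also called osteonectin, binds collagen. It was at 1243, 1207, 733, 1348 and 1344 CPM in sgCon tumors 1 to 5 and at 1027, 1173, 1222, 1403 and 1321 CPM in sgTaz tumors 1 to 5. Apart from sgCon tumor 3, all tumors were between 1027 and 1403 CPM. Sparc had a log2 fold change of 0.065 (95% confidence interval -0.28 to 0.41), so the interval excludes a change of either sign larger than 1.33-fold.

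Thbs1 (ENSMUSG00000040152.8, chr2:118111876-118127133, plus strand) encodes thrombospondin 1, which activates latent TGF-β and inhibits angiogenesis through CD36 and CD47. In sgCon tumors 1 to 5 its level was 429, 350.4, 148, 365 and 257 CPM, and in sgTaz tumors 1 to 5 it was 234, 361, 429, 398 and 331 CPM. The highest tumors of the groups differed by less than 1 CPM, while sgTaz tumor 1 and, among sgCon tumors, numbers 3 and 5 were low. For Thbs1 the log2 fold change was 0.18 (95% confidence interval -0.38 to 0.73). Thbs2 (ENSMUSG00000023885.9, chr17:14665500-14694235, minus strand) encodes thrombospondin 2, which also inhibits angiogenesis but lacks the sequence that activates TGF-β. It was at 449, 311, 148, 265 and 404 CPM in sgCon tumors and at 135, 369, 291, 289 and 305 CPM in sgTaz tumors, in the same order, with its lowest values in sgTaz tumor 1 and sgCon tumor 3. The log2 fold change of Thbs2 was -0.18 (95% confidence interval -0.84 to 0.48). The estimates of the thrombospondins had opposite signs, and both intervals include 0.

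Tnc, Postn and Tgfbi encode proteins that modulate adhesion in remodelled stroma. Tnc (ENSMUSG00000028364.15, chr4:63959785-64047015, minus strand) encodes tenascin C, a large multi-armed protein that is deposited in wounds and around invading tumor cells. It was at 1039, 685, 245, 492 and 1189 CPM in sgCon tumors 1 to 5 and at 175, 785, 629.9, 600.5 and 562 CPM in sgTaz tumors 1 to 5. The lowest value was that of sgTaz tumor 1 and the next that of sgCon tumor 3, while sgCon tumors 1 and 5 were above every sgTaz tumor. The means were 729.9 ± 387 CPM (SD, n = 5) in sgCon and 550.5 ± 227 CPM (SD, n = 5) in sgTaz tumors. For Tnc the log2 fold change was -0.41, with a 95% confidence interval of -1.36 to 0.54 (adjusted p = 0.615 from edgeR). It was -0.16 without sgCon tumor 5, -0.18 without sgTaz tumor 1 and -0.62 without sgCon tumor 3.

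Postn (ENSMUSG00000027750.16, chr3:54361109-54391037, plus strand) encodes periostin, which binds collagen, fibronectin and tenascin C and is made mainly by fibroblasts. Its level was 479.8, 438, 187, 337 and 434 CPM in sgCon tumors 1 to 5 and 164, 339, 355, 445 and 436 CPM in sgTaz tumors 1 to 5. Leaving aside sgCon tumor 3 and sgTaz tumor 1, the tumors of both groups covered nearly the same range. The log2 fold change was -0.11 (95% confidence interval -0.74 to 0.52). Tgfbi (ENSMUSG00000035493.10, chr13:56609523-56639562, plus strand) encodes a relative of periostin that is induced by TGF-β. It was at 266, 263, 256, 213 and 229 CPM in sgCon tumors and at 242, 307, 214, 191 and 253 CPM in sgTaz tumors, in the same order. Neither sgCon tumor 3 nor sgTaz tumor 1 was low in Tgfbi. Tgfbi had a log2 fold change of -0.024 (95% confidence interval -0.29 to 0.24), the narrowest interval of the 10.

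Vcan and Cthrc1 had the lowest levels of the set and the widest spread. Vcan (ENSMUSG00000021614.16, chr13:89655312-89742509, minus strand) encodes versican, a large chondroitin sulfate proteoglycan that binds hyaluronan. It was at 48.8, 37.8, 6.74, 20.8 and 29.9 CPM in sgCon tumors 1 to 5 and at 10.1, 31.1, 32.4, 42.6 and 39.9 CPM in sgTaz tumors 1 to 5. In both groups 1 tumor was far below the rest, sgCon tumor 3 and sgTaz tumor 1. The log2 fold change of Vcan was 0.11 (95% confidence interval -0.91 to 1.13), so that sgTaz levels from 0.533 to 2.19 times those of sgCon tumors lie within the interval. Cthrc1 (ENSMUSG00000054196.7, chr15:39076932-39087121, plus strand) encodes a short secreted protein with a collagen-like stretch, made by activated fibroblasts. It was at 12.01, 9.06, 0.561, 8.05 and 11.6 CPM in sgCon tumors 1 to 5 and at 1.15, 6.52, 8.79, 8.17 and 6.98 CPM in sgTaz tumors 1 to 5. Only 9 reads were counted in sgCon tumor 3 and 18 in sgTaz tumor 1, where the other 8 tumors had 96 or more. The log2 fold change was -0.39 (95% confidence interval -1.76 to 0.99, adjusted p = 0.750 from edgeR).

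**Figure D2:**
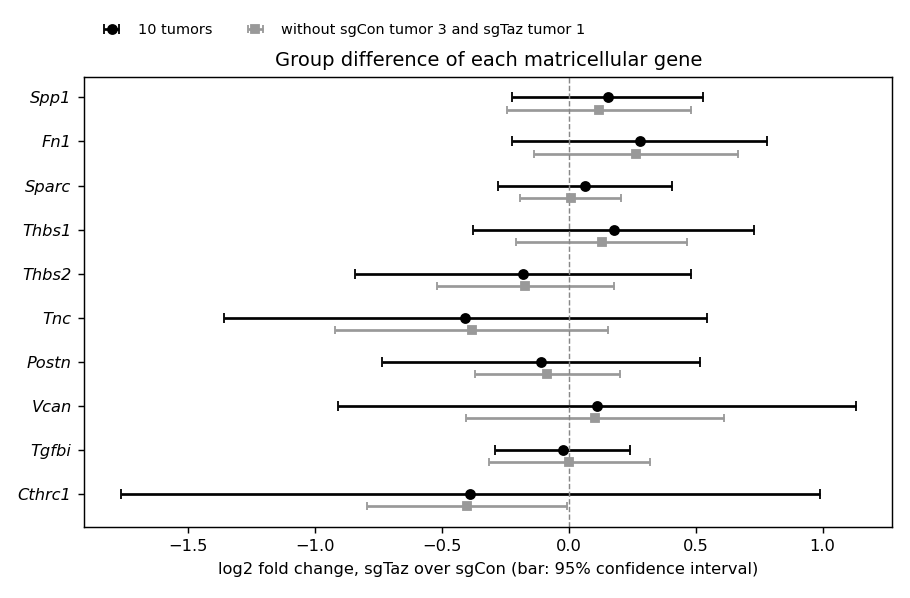
Log2 fold change of each gene, sgTaz over sgCon (horizontal axis), with its 95% confidence interval from edgeR, from all 10 tumors (black circles) and without sgCon tumor 3 and sgTaz tumor 1 (gray squares). All 10 black intervals include 0, and 9 of the 10 gray ones do, with that of Cthrc1 ending at -0.0046.

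The spread between tumors of the same group was large for most of these genes. The SD of log2 CPM within groups was 1.49 for Cthrc1, 0.98 for Vcan and 0.89 for Tnc, where the median over all tested genes was 0.23. These 3 genes were above the 90th percentile of all tested genes, at percentiles 99.2, 96.8 and 95.7. Thbs2, Postn and Thbs1 were at percentiles 88.3, 87.0 and 82.6. The most even were Tgfbi, at percentile 45.7 with an SD of 0.21, and Sparc and Spp1, at percentiles 61.7 and 64.0. Genes with few reads vary more by counting alone. Cthrc1 had as few as 9 counts in a tumor, Vcan at least 108 and Tnc at least 2745.

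**Figure D3:**
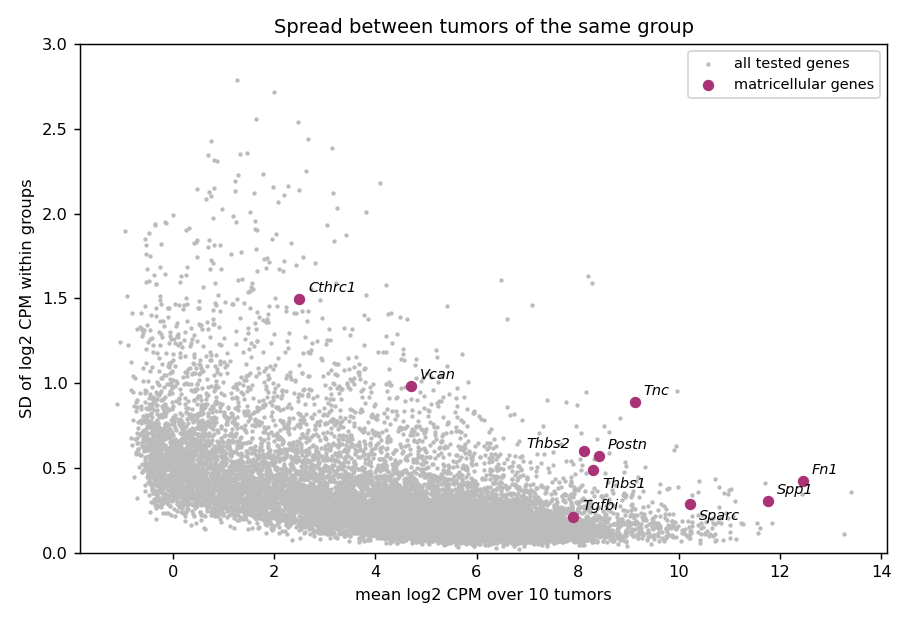
SD of log2 CPM between tumors of the same group (vertical axis) against the mean log2 CPM over the 10 tumors (horizontal axis) for all tested genes (gray) and the 10 matricellular genes (purple), with 1 gene above the axis. Tnc, Thbs2, Postn and Thbs1 lie in the upper part of the cloud, at percentiles 82.6 to 95.7 of all tested genes, and Tgfbi within its dense part.

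For most of these genes the lowest tumors were sgCon tumor 3 and sgTaz tumor 1. Of the sgCon tumors, tumor 3 was the lowest in 9 of the 10 genes, in all but Tgfbi, where it was the lowest in 28.7% of all tested genes. Of the sgTaz tumors, tumor 1 was the lowest in 8 of the 10, in all but Spp1 and Tgfbi, against 22.9% of all tested genes. Both held together in 8 of the 10 genes and in 8.77% of all tested genes. Together, the 10 genes took 0.714% of the counts of sgCon tumor 3 and 0.963% of those of sgTaz tumor 1, and between 1.15% and 1.45% of those of the other 8 tumors.

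The size of the dip differed by gene. Relative to the median of the other 4 sgCon tumors, sgCon tumor 3 was at 0.054 for Cthrc1, 0.20 for Vcan, 0.28 for Tnc and between 0.41 and 0.63 for Thbs1, Thbs2, Postn, Fn1, Sparc and Spp1. For sgTaz tumor 1 the same ratio to its group was 0.15 for Cthrc1, 0.28 for Vcan, 0.28 for Tnc, 0.41 for Postn and 0.45 for Thbs2. Fn1, Thbs1, Sparc and Spp1 were between 0.62 and 0.84 there, and Tgfbi was at 1.04. Cthrc1, Vcan and Tnc were thus the lowest relative to their groups in both tumors, and Tgfbi was at 1.04 in sgCon tumor 3.

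Without these 2 tumors, a choice made after their values had been seen, 0 of 10 genes passed edgeR's adjusted test and the whole table gave 0 calls. The 95% confidence intervals of Postn (-0.37 to 0.20) and Tnc (-0.92 to 0.15) were narrower than those from all 10 tumors, and that of Tgfbi was not. For Cthrc1 the log2 fold change was then -0.40, with an interval of -0.80 to -0.0046 and an adjusted p of 0.303 from edgeR. The SD of Cthrc1 within groups fell to percentile 58.9 of all tested genes and that of Sparc to percentile 10.9. Thbs2, Thbs1 and Postn fell to percentiles 64.4, 60.2 and 52.2, while Tnc and Vcan were then at percentiles 82.4 and 79.4.

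Summed markers of several cell types were low in these tumors, though not every gene of a list was. The 10 fibroblast markers, among them Col1a1, Col3a1 and Dcn, summed to 1895 CPM in sgCon tumor 3 and 1985 CPM in sgTaz tumor 1, against 3463 to 5153 CPM in the other 8 tumors. Gene by gene, sgCon tumor 3 was the lowest of its group in 6 of the 10 and sgTaz tumor 1 in 7. The epithelial markers summed to 2242 and 1664 CPM in the same tumors and to 2104 to 5222 CPM in the other 8, with sgTaz tumors 3 and 4 below sgCon tumor 3, and each of these tumors was the lowest of its group in 9 of the 10 epithelial genes. The 8 markers of smooth muscle and pericytes summed to 326 and 305 CPM, each the lowest of its group. Each of these tumors was the lowest in 6 of the 8 genes. The 8 neutrophil markers summed to 188 CPM in sgCon tumor 3 and 70.0 CPM in sgTaz tumor 1, also the lowest sums of their groups. Of these 8 genes, 5 were lowest in sgCon tumor 3 and 8 in sgTaz tumor 1. Endothelial markers summed to 441 CPM in sgCon tumor 3, the lowest of its group, and 438 CPM in sgTaz tumor 1, where sgTaz tumor 2 was lower. All of these genes were detected in every tumor.

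Macrophage, B cell and lymph node markers were not low in both tumors relative to their groups. The 10 macrophage markers summed to 2460.1 and 2892 CPM, inside the range of 1493 to 2882 CPM of the sgCon tumors and that of 2286 to 3363 CPM of the sgTaz tumors. The 8 markers of B cells summed to 860.1 CPM in sgCon tumor 3, the highest of all tumors, and 7.83 CPM in sgTaz tumor 1, near the lowest. Genes of lymph node stroma summed to 819 CPM in sgCon tumor 3 and 2.35 CPM in sgTaz tumor 1, with 5 of the 8 at 0 in at least 1 tumor. The part of any cell type in the levels of the 10 genes was not tested.

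Between the groups as a whole, the sum of the fibroblast markers ranged from 1895 to 5153 CPM in sgCon and from 1985 to 5069 CPM in sgTaz tumors, and 0 of 10 passed edgeR's adjusted test. At an unadjusted p below 0.05 there were 2, Pdgfra and Thy1, which DESeq2 called in opposite directions. Of the 10 macrophage markers, all had a log2 fold change above 0, with a median of 0.46. Those called by DESeq2 include Adgre1 and Mrc1, and edgeR called 0, with 5 at an unadjusted p below 0.05. All 10 epithelial markers had a log2 fold change below 0, with a median of -0.48, and DESeq2 called Krt14 and Krt19, where edgeR called 0 and had 5 at an unadjusted p below 0.05. Over all genes, 21.8% of those tested had an unadjusted p below 0.05 in edgeR, and DESeq2 called 6.87% of those with an adjusted p. The marker genes named here as called were chosen after their values were seen.

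Markers of lymphocytes and neutrophils were lower in sgTaz tumors before adjustment. Of all tested genes, 21.8% had an unadjusted p below 0.05 in edgeR, in either direction. All 8 B cell and all 8 T cell markers had an unadjusted p below 0.05 in edgeR, all lower, with median log2 fold changes of -3.17 and -1.67, and 0 passed the adjusted test. DESeq2 called 0 of the B cell and 3 of the T cell markers, where it called 6.87% of all genes with an adjusted p. The B cell sum was 68.1 to 860.1 CPM in sgCon and 7.56 to 183 CPM in sgTaz tumors, with overlap, and Blk, Fcmr and Ms4a1 were at 0 in at least 1 tumor. The T cell sum was 85.0 to 657 CPM in sgCon and 55.6 to 174 CPM in sgTaz tumors, and all 8 T cell markers were detected in every tumor. SCID hosts lack mature B and T cells, and which host bore these tumors was not tested from these values. Of the 8 neutrophil markers, 4 had an unadjusted p below 0.05, all lower, with a median of -1.05 and sums of 188 to 766 and 70.0 to 292 CPM. Smooth muscle and pericyte markers had 2 of 8 at an unadjusted p below 0.05, Des and Tagln, both lower. EdgeR's adjusted test passed 0 of these 8, while DESeq2 called Des and limma-voom called both. The lists of endothelial, lymph node, platelet, adipocyte and skeletal muscle markers had 0 each at an unadjusted p below 0.05 in edgeR, with medians of 0.12, -2.19, -0.37, 1.25 and -0.13 in that order. Limma-voom called 4 of the 6 tested lymph node markers as lower in sgTaz tumors, Ccl19, Ccl21a, Cr2 and Glycam1. It also called 7 of the 8 B cell, 3 of the 8 T cell and 3 of the 8 neutrophil markers, all lower. It called 10.4% of all tested genes in either direction. None of the 10 matricellular genes passed beside these shifts, and the part of the shifts in their levels was not tested.

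**Figure D4:**
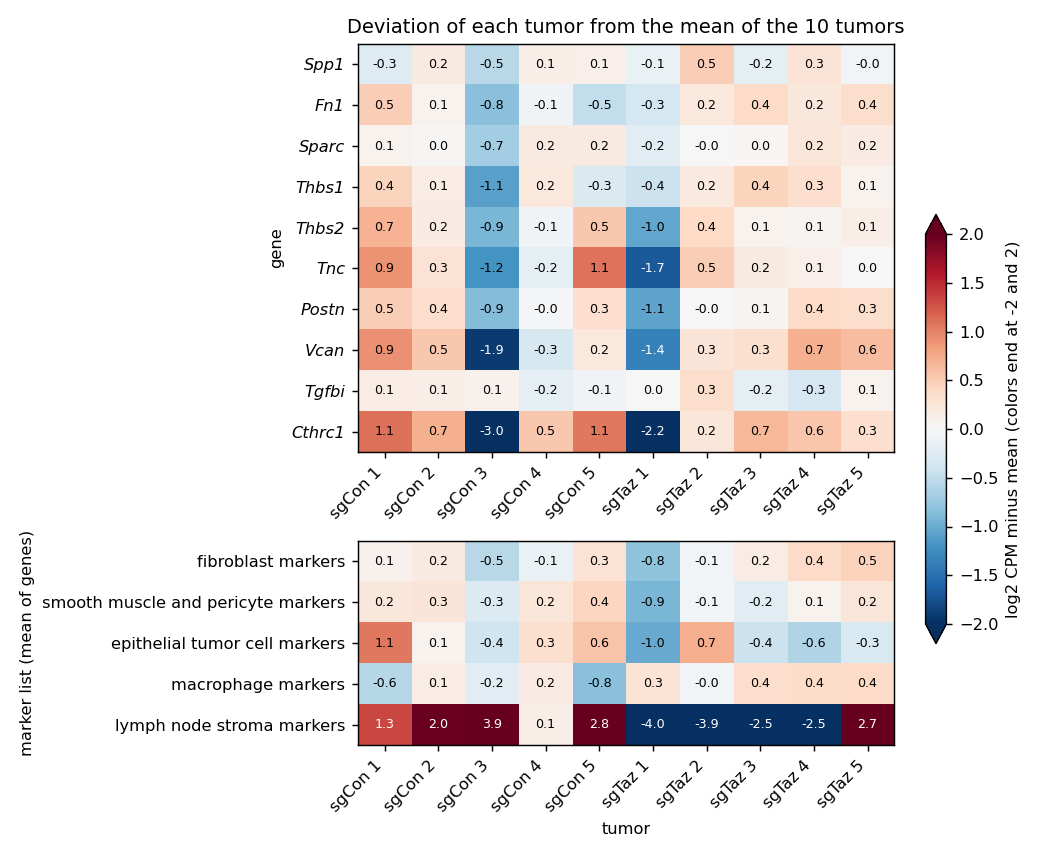
Log2 CPM of each tumor (columns) minus the mean of the 10 tumors, for the 10 genes (upper rows) and for the mean of 5 lists of marker genes (lower rows). Blue is below and red above the mean, and colors end at -2 and 2. The columns of sgCon tumor 3 and sgTaz tumor 1 are blue in nearly all genes except Tgfbi and in the fibroblast, smooth muscle and epithelial rows, and the row of lymph node stroma separates these tumors.

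Genes were also compared by how alike their pattern over the 10 tumors was, as the root mean square difference of log2 CPM after each gene was centred on its own mean. This is a description without a test, over tumors that share the same libraries. The measure tends to be small for genes that vary little, so it does not rank likeness between genes of different spread. The closest pair among the 10 was Fn1 and Thbs1, at 0.17, followed by Thbs2 and Postn, at 0.21. Over all tested genes, those most like Thbs2 were Col1a1 (0.10) and Gprc5a (0.11), and those most like Postn were Fstl1 (0.085) and Col1a2 (0.13). Col1a1 and Col1a2 encode the chains of type I collagen, the main fibrillar collagen of fibroblasts. Vcan was nearest to Adamtsl1 (0.20) and Col3a1 (0.29), the gene of type III collagen.

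Tnc was nearest to Mmp9 (0.21), which encodes a gelatinase, and to Prokr2 (0.22). Sparc was nearest to Tshz3 (0.081) and P4ha2 (0.11), which encodes a subunit of the enzyme that hydroxylates collagen prolines. The nearest genes to Cthrc1 were farther away, with Ibsp at 0.55 and Vcan at 0.60. Nearest to Fn1 were Fam160a1 (0.13) and Sh2d1b1 (0.14), and nearest to Thbs1 were Fam198b (0.14) and Ncmap (0.16). Spp1 was nearest to Numbl (0.14) and Gjc1 (0.15), and Tgfbi to Plpp6 (0.11) and Zbp1 (0.11). Only for Thbs2, Postn and Vcan was a collagen gene among the 2 nearest genes, and genes beyond these 2 were not compared.

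Promoters are printed here because TAZ reaches DNA through TEAD factors, for Thbs2, Tnc, Postn and Vcan, which were at 0.20 to 0.45 of the median of their group in both low tumors, and for Spp1, the most abundant gene per length. The sequences are those of RefSeq on GRCm38.p6, the 250 bases before the start nearest to the annotated gene, written 5′ to 3′ on the strand of the gene. They lie at chr17:14694263-14694512 (minus strand), chr4:64047016-64047265 (minus), chr3:54360857-54361106 (plus), chr13:89742513-89742762 (minus) and chr5:104434861-104435110 (plus). Capitals mark matches, on either strand, to the letters TATAAA, the core of the TATA box, or to the RUNX motif core, with letters ACCACA.
Thbs2: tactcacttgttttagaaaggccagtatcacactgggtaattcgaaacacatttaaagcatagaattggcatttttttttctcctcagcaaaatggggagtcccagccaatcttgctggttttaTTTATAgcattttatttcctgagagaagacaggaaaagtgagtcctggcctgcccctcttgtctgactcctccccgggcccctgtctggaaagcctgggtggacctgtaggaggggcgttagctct
Tnc: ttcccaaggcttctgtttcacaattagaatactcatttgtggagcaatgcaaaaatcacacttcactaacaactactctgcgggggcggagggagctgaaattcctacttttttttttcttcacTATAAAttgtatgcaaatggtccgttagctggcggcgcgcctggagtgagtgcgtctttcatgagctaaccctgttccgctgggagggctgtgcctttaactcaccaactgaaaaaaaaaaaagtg
Postn: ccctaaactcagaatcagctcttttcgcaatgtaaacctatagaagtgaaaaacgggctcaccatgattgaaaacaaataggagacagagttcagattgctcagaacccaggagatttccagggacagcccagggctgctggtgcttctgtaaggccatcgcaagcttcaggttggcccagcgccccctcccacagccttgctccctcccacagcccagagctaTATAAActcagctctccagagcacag
Vcan: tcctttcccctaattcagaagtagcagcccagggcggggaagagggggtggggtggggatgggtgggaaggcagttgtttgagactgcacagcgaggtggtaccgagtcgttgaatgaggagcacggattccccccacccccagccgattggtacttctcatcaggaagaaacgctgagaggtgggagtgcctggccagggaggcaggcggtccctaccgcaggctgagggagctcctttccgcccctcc
Spp1: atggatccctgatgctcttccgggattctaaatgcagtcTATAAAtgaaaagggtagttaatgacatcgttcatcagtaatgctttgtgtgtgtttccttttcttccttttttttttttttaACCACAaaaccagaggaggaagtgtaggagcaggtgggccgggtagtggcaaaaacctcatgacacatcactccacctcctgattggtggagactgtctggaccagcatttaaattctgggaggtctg

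No match to GGAATG, the core of the TEAD motif, or to TGANTCA, the motif of AP-1, was found on either strand of these 5 sequences. Of 32851 RefSeq promoters of the same length, 12.6% hold GGAATG and 6.75% hold TGANTCA. The TATA box core is in 12.4% of them. Postn holds it with its first base 26 bases before the start, near the usual place of a TATA box, and Thbs2, Tnc and Spp1 hold it farther away. The RUNX core, found in 14.0% of promoters, is in that of Spp1, 128 bases before the start. RUNX factors are known to drive Spp1 in bone. A match is a stretch of letters and not a shown site, and TEAD factors often act from distant enhancers, which were not analysed here.

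Per length, the 10 genes spanned a wide range. The level of a gene was divided by the length of its exons, which allows genes to be compared, in CPM per kilobase. Spp1 was highest in both groups, at 2037 ± 412 CPM per kilobase (SD, n = 5) in sgCon and 2266 ± 475 (SD, n = 5) in sgTaz tumors. Fn1 followed at 448 ± 157 and 544 ± 99.7 CPM per kilobase, and Sparc at 310.2 ± 67.3 and 325 ± 37.9 (all SD, n = 5). Fn1 was above Sparc in 9 of 10 tumors.

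Below these came Tnc, Tgfbi, Thbs1, Thbs2 and Postn, with means between 43.1 and 93.9 CPM per kilobase (sgCon tumors) or 39.7 and 70.8 CPM per kilobase (sgTaz tumors). Neighbors in this order differed by no more than the spread between sgCon tumors, and Thbs2 and Postn changed places between the groups. Cthrc1 and Vcan were lowest, at 5.19 ± 2.90 and 1.99 ± 1.11 CPM per kilobase in sgCon tumors (SD, n = 5). In sgTaz tumors they were at 3.97 ± 1.90 and 2.16 ± 0.883 (SD, n = 5). Apart from the change of places of Thbs2 and Postn, the order of the means was the same in sgCon and sgTaz tumors.

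Pairs of genes were compared within each tumor to see whether they differed in balance between the groups. For Thbs1 and Thbs2, the log2 ratio of their CPM averaged -0.015 ± 0.41 in sgCon tumors and 0.38 ± 0.34 in sgTaz tumors (SD, n = 5 each). This difference of 0.39 did not pass an exact two-sided permutation test (p = 0.151, adjusted p = 0.452 over 3 ratios). The ratio of Spp1 to Fn1 differed by -0.17 (exact permutation p = 0.563), and that of Postn to Tnc by 0.24 (exact permutation p = 0.405), both with an adjusted p of 0.563. No difference beyond the spread between tumors was thus detected in the 3 ratios. With 5 tumors against 5, the smallest p this test can give is 0.00794.

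**Figure D5:**
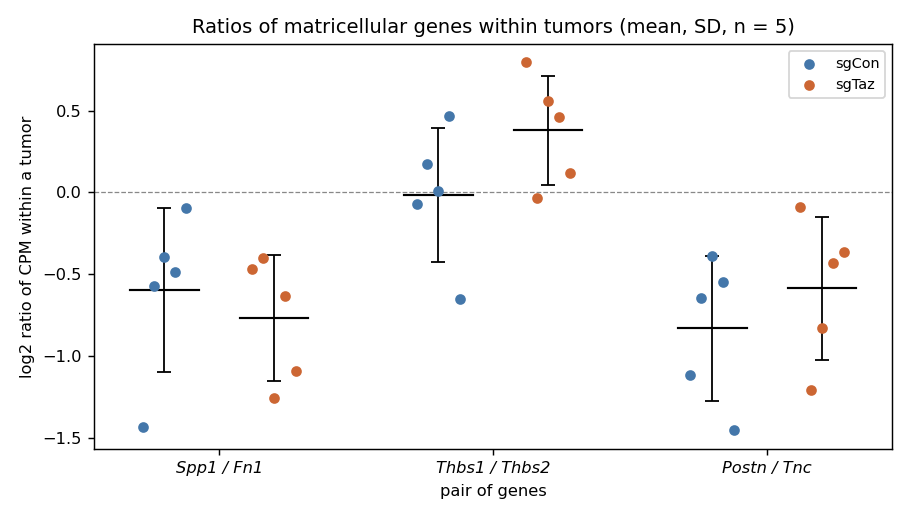
Log2 ratio of the CPM of 2 genes within each tumor (vertical axis) for 3 pairs, in sgCon (blue) and sgTaz (orange) tumors, with the mean as a line and the SD as a bar. The groups overlap in all 3 pairs, and the means lie farthest apart for Thbs1 over Thbs2, at -0.015 and 0.38.

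Other matricellular genes likewise gave no call between the groups. Of 21 relatives listed, 20 were in the table and 19 were tested, of which 0 passed edgeR's adjusted test, 0 were called by DESeq2 or limma-voom, and 2 had an unadjusted p below 0.05. These 2, named after their values were seen, were Ccn4, at 55.1 ± 13.8 CPM in sgCon and 90.8 ± 41.6 CPM in sgTaz tumors, and Tnn, at 5.93 ± 2.99 and 3.18 ± 1.19 CPM (SD, n = 5). At an unadjusted p below 0.05 there were 21.8% of all tested genes. Of the 19 tested relatives, sgCon tumor 3 was the lowest of its group in 9 and sgTaz tumor 1 in 8. Among the 10 matricellular genes the counts were also 9 and 8, a larger share. Of the 11 tested proteases described below they were 8 and 7, and of the 17 receptors 11 and 6, so this pattern was not particular to the 10 genes. The median log2 fold change of the 19 was -0.027. The most abundant were Fbln2 and Ltbp1, which encode a fibulin and a protein that stores latent TGF-β. Fbln2 was at 451 ± 124 CPM in sgCon and 387 ± 79.3 CPM in sgTaz tumors (SD, n = 5), and Ltbp1 at 305 ± 43.0 and 335 ± 24.97 CPM (SD, n = 5).

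Next in abundance were Sparcl1 and Ccn1. Sparcl1, a relative of Sparc, had a log2 fold change of 0.20 (adjusted p = 0.665 from edgeR), and sgCon tumor 3 was its lowest tumor, at 68.4 CPM. Ccn1, a commonly used target gene of YAP and TAZ, was at 97.1, 128, 105, 115 and 149.7 CPM in sgCon tumors 1 to 5 and 87.1, 97.0, 139.9, 104 and 80.0 CPM in sgTaz tumors 1 to 5. With a log2 fold change of -0.23 (adjusted p = 0.413 from edgeR) it did not pass, and the lowest tumor within each group was sgCon tumor 1 or sgTaz tumor 5.

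Receptors of these proteins held the only calls among the related lists. All 17 listed were tested, and 0 passed edgeR's adjusted test, but 7 had an unadjusted p below 0.05, all higher in sgTaz tumors, where 21.8% of all tested genes had one in either direction. DESeq2 called 4 of the 17, all higher in sgTaz tumors, where it called 6.87% of all genes in either direction. They were Itgav, Itgb8, Itga8 and Lrp1, of which Itgav, Itgb8 and Itga8 encode chains of integrins that bind the RGD sequence of matrix proteins. Limma-voom called 6 as higher and 2, Itgb6 and Sdc1, as lower, where it called 10.4% of all tested genes. Genes called by DESeq2 or limma-voom are named here after their values were seen, except Lrp1.

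Itgav, the integrin chain αv, was at 220.2, 208, 182, 199.7 and 223 CPM in sgCon tumors 1 to 5 and at 297, 287, 283, 269 and 228 CPM in sgTaz tumors 1 to 5. Every sgTaz tumor was above every sgCon tumor, where 2.44% of all tested genes had this pattern. Itgav had a log2 fold change of 0.40 with a standard error of 0.087 and an adjusted p of 0.0896 in edgeR, 0.00214 in DESeq2 and 0.028 in limma-voom. Itga8 had a log2 fold change of 1.27, with an adjusted p of 0.0960 in edgeR and 0.00479 in DESeq2. In sgCon tumors it was between 7.24 and 18.9 CPM, and in sgTaz tumors between 18.3 and 51.8 CPM, so that the groups overlapped. Itgav and Itga8 share 634 and 372 exon bases with genes on the opposite strand, and whether the counting used the strand is not given in the sources used here.

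Lrp1, an endocytic receptor that clears thrombospondins among other ligands, was at 461 ± 94.2 CPM (SD, n = 5) in sgCon and 652 ± 124 CPM (SD, n = 5) in sgTaz tumors. For Lrp1, a log2 fold change of 0.50 had an adjusted p of 0.129 in edgeR and 0.0413 in DESeq2. Itgb8 was near 2.41 CPM in sgCon and 4.58 CPM in sgTaz tumors, with an adjusted p of 0.119 in edgeR. The other abundant receptors, Itgb1, Cd47 and Sdc4, had log2 fold changes of 0.036, 0.10 and 0.10, with adjusted p between 0.530 and 0.891 from edgeR. Over the 17 receptors, the median log2 fold change was 0.10. Macrophages are known to express Lrp1 and Stab1. The macrophage markers Adgre1 and Mrc1 were called higher in sgTaz tumors by DESeq2, and the part of macrophages in the receptor values was not tested.

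Proteases that process matrix and matricellular proteins gave 0 of 11 tested genes past edgeR's adjusted test, of 12 listed, and 0 called by DESeq2 or limma-voom. At an unadjusted p below 0.05 there were 3, Mmp14 and Adamts9 with higher and Mmp3 with lower levels in sgTaz tumors, where 21.8% of all tested genes had such a p. Adamts9 and Mmp3 are named after their values were seen. Mmp14, a membrane-bound protease that activates Mmp2, was at 262 ± 29.6 CPM (SD, n = 5) in sgCon and 314 ± 21.3 CPM (SD, n = 5) in sgTaz tumors, without overlap between the groups, a pattern of 2.44% of all tested genes. This was a log2 fold change of 0.26 (adjusted p = 0.141 from edgeR). Mmp3 was at 167 ± 63.8 and 85.1 ± 44.6 CPM, with overlap, and an adjusted p of 0.195. Adamts9, which cleaves versican, was at 43.5 ± 9.75 and 60.5 ± 15.3 CPM, also with overlap, and shares 1381 exon bases with a gene on the opposite strand.

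Mmp9, the closest neighbor of Tnc, was at 735, 447, 189, 280.1 and 599.9 CPM in sgCon tumors 1 to 5 and 149, 533, 381, 349.7 and 385 CPM in sgTaz tumors 1 to 5, with its lowest values in sgCon tumor 3 and sgTaz tumor 1. Bmp1, which encodes a procollagen protease, and Plau, which encodes urokinase, had log2 fold changes of -0.13 and -0.28 (adjusted p = 0.711 and 0.449 from edgeR). The median log2 fold change of the 11 proteases was -0.077.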

How the data were processed

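RNA-seq of 5 sgCon and 5 sgTaz whole tumors was used. In the methods, the authors aligned reads with STAR on mm10 and GENCODE annotation, and counted them by gene with featureCounts of Subread. The deposited values are these raw counts, 1 column per tumor, for 17864 genes. The versions of these tools and the strand setting are not given in the sources used here. Another 5 columns of the table match no sample label and were not used. Genes were named by matching identifiers to GENCODE M21 (17860 found).

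Counts were analysed with edgeR 4.0.16 in R 4.3.3 on the whole table. This used TMM factors, filterByExpr with the groups, the quasi-likelihood functions glmQLFit and glmQLFTest, and a threshold of 0.05 on Benjamini-Hochberg adjusted p over 14816 genes. DESeq2 1.42.0, the test named in the methods, and limma 3.58.1 were alternatives. Log2 CPM used a prior count of 2. Total counts between 12185383 and 19595821 put 3 counts at 1.53e-05% to 2.46e-05% of a tumor's counts. This floor covers counting error only. Every pair of tumors within a group differed by more than sampling noise. Replicate numbers were not read as pairs, and the labels number the tumors without saying that they came from separate mice, so p-values measure only the spread between these samples.

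Named are the 10 genes, Wwtr1, the 4 most abundant genes of each of 3 related lists (other matricellular genes, receptors and proteases) and any of their genes called by edgeR, and for each of the 10 the 2 genes with the most alike pattern. EdgeR called none in the related lists, and further genes of these and the marker lists, with a DESeq2 or limma-voom call or an unadjusted p below 0.05, are named after their values were seen. The 10 genes, these lists and 12 lists of cell type markers were chosen with earlier results of these data known. Alternatives were other normalizations and filters, offsets for GC content and exon length, the replicate block, and each tumor left out. Scripts were tested on simulated data. The values of 1 marker gene are not reported here. Sequences are from RefSeq (GRCm38.p6), where 7 of the 10 genes have a promoter listed.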

Additional observations from a re-analysis of the deposited data

Results flagged for a closer look

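Among 52 groups of 5 values, 12 held a tumor far from the others of its group by Dixon's test, where chance gives about 2.6. Of these, 8 concern the 10 matricellular genes, all from sgCon tumor 3 or sgTaz tumor 1 and all low. In sgTaz tumor 1, log2 CPM was 12.1 for Fn1 (others 12.6 to 12.8), 7.08 for Thbs2 (others 8.18 to 8.53) and 7.45 for Tnc (others 9.13 to 9.62). The same tumor was at 7.36 for Postn (others 8.41 to 8.80), 3.35 for Vcan (others 4.96 to 5.42) and 0.34 for Cthrc1 (others 2.73 to 3.16). In sgCon tumor 3, log2 CPM was 9.52 for Sparc (others 10.2 to 10.4) and -0.54 for Cthrc1 (others 3.03 to 3.60). These genes share the same 2 libraries, so the 8 values are not independent of each other.

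The other 4 values concern related genes. Sparcl1 was at 6.10 in sgCon tumor 3 (others 7.16 to 7.47), as was Itgb1 at 9.84 (others 10.3 to 10.4). Sdc4 was at 8.08 in sgTaz tumor 5 (others 8.45 to 8.51), and Bmp1 at 9.45 in sgTaz tumor 2 (others 8.86 to 8.93).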

How the results depend on the processing

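The count of 0 of 10 matricellular genes held in all 20 alternatives, and every log2 fold change stayed on its side of the threshold. Estimates near 0 changed sign in 13 cases, each of them 1 gene in 1 alternative fit. Spp1 was at -0.0027 in limma-voom, Sparc at -0.060 and Vcan at -0.13 without sgCon tumor 3, Vcan at -0.024 without sgTaz tumor 4, and Postn at 0.070 without sgTaz tumor 1. Tgfbi was at 0.017 with GC and length offsets, 0.0018 without a filter, 0.0095 with these offsets and the replicate block, 0.0074 without sgCon tumor 1, 0.0031 without sgCon tumor 2, 0.0032 without sgCon tumor 3 and sgTaz tumor 1 together, 0.017 without sgTaz tumor 3 and 0.050 without sgTaz tumor 4. Leaving out single tumors gave ranges of -0.060 to 0.12 for Sparc, -0.27 to 0.070 for Postn, -0.13 to 0.39 for Vcan, -0.13 to 0.050 for Tgfbi, 0.040 to 0.22 for Spp1, 0.15 to 0.47 for Fn1, 0.0049 to 0.32 for Thbs1, -0.35 to -0.0059 for Thbs2, -0.62 to -0.16 for Tnc and -0.68 to -0.12 for Cthrc1. An end of the range came without sgCon tumor 3 in 8 of the 10 genes, all but Spp1 and Tgfbi. The fit without both low tumors was chosen after seeing the data. The ratios kept their direction and did not pass in any alternative.

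The number of all genes called was 1 in edgeR, 1081 in DESeq2, 1546 in limma-voom, 5 with at least 10 counts in every tumor and 0 without a filter, with GC and length offsets, or without sgCon tumor 3 and sgTaz tumor 1. Leaving out each tumor gave 0 to 172, the most without sgTaz tumor 5 and next, 75, without sgTaz tumor 2. It was also 0 with the replicate block, alone or with the offsets. Deviations of same-numbered tumors from their group means correlated between -0.24 and 0.22, and 1 of 5 sgCon tumors was closest to its own number, so the numbers were not read as pairs. Under the block, 0 of 10 matricellular genes passed. Of the receptors, 4 passed in DESeq2, 8 in limma-voom and 0 to 1 with each tumor left out, against 0 in edgeR. The causes of these differences between tools were not tested. Dividing by the longest transcript in place of all exons moved the levels per kilobase of Fn1, Sparc, Tgfbi and Postn by more than 1 SD and put Postn before Thbs2 and Thbs1. Cthrc1 could not be fitted with at least 10 counts in every tumor, and its depth limits what can be said of it.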
